A study of Mus musculus with 2 samples.

Results

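*Barx1*, *Six2*, *Eya4*, *Isl1*, *Nkx2-5* and *Nkx3-2* are genes of regional mesenchyme, the embryonic connective tissue that gives each stretch of the gut its character. They are 6 of the 31053 genes counted in 2 single-cell RNA libraries of mouse intestinal lamina propria. *Barx1*, *Six2* and *Eya4* were selected on their VApcMinL over ApcMin ratios of UMI counts, which were among the smallest in the fibroblasts of these libraries, and *Isl1*, *Nkx2-5* and *Nkx3-2* because they stood on a list of foregut mesenchyme genes compared between the same libraries. The difference between the libraries is therefore given as a description, with no test. The cells described are droplet barcodes with at least 3000 unique molecular identifiers (UMIs, each the tag of 1 captured RNA molecule), at most 20% of them from mitochondrial genes, and at least 1 UMI of *Pdgfra*, a receptor gene of fibroblasts. There were 3441 such cells among 6599 kept barcodes of ApcMin and 3778 among 6569 of VApcMinL.

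Both libraries came from the intestine of C57BL/6 mice that carry the Min allele of *Apc* (ApcMin/+), a truncating mutation that causes intestinal adenomas, with an age of 11 weeks in the labels. The ApcMin library has the genotype ApcMin/+;Lef1 +/+. The VApcMinL library has the genotype ApcMin/+;Lef1 fl/fl;Villin-Cre, in which both *Lef1* alleles are floxed and Cre is driven by the promoter of Villin, a gene of the intestinal epithelium, so that the fibroblasts themselves are not the cells in which Cre acts. Lamina propria was digested with EDTA and Liberase, and live cells without Ter119, EpCAM and CD45, the surface proteins of red blood cells, epithelial cells and leukocytes, were sorted for 3′ droplet sequencing. Each genotype has 1 library, the number of mice behind it is not given, and the stretch of intestine taken is not stated, so genotype, animal, stretch and preparation cannot be told apart. The ApcMin library held 93203061 UMIs and the VApcMinL library 101609269, and the *Pdgfra*-positive cells had a median of 13425 and 10854.5 UMIs. The libraries shared 7 barcodes among those cells.

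*Lef1*, a transcription factor of the Wnt pathway, was nearly absent from the cells described, with 21 UMIs in each library, or 0.428 and 0.464 CPM (counts per 1000000 UMIs of the cells summed). In kept barcodes with at least 10 *Epcam* UMIs, where the deletion would lie, 22 *Lef1* UMIs were found in 45 ApcMin barcodes (7.65 CPM, 95% interval 4.79 to 11.6) and 29 in 334 VApcMinL barcodes (1.94 CPM, 1.30 to 2.79). These UMIs came from 4 and 10 barcodes, and since the deleted exons are not named in the sources used here, a tag near the 3′ end does not report the deletion itself. Intervals here and below are exact at 95%, of the Poisson kind for CPM, Clopper-Pearson for shares and conditional binomial for ratios, and they cover counting error only.

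As background, the stomach and its exit, the pylorus, are patterned by transcription factors that their mesenchyme switches on in the embryo. *Barx1*, a homeobox gene of stomach mesenchyme, restrains Wnt signalling there through secreted Sfrp antagonists and lets the overlying endoderm form stomach epithelium. *Six2*, *Isl1*, *Nkx2-5* and *Nkx3-2* mark the pyloric region or the hind stomach, where *Isl1*, a LIM homeobox gene, acts upstream of *Gata3* in the pyloric muscle, and *Nkx2-5* and *Nkx3-2* belong to the NK homeobox class. *Eya4* encodes a transcription cofactor and phosphatase whose family binds the protein family of *Six2*. In adult small intestine, fibroblasts are grouped into adventitial cells with *Pi16*, cells near the crypt with *Grem1*, cells of the villus and crypt core with *Adamdec1*, and subepithelial cells with *Wif1* or *Bmp5*.

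The cells matched what *Pdgfra* is meant to mark. *Dcn*, a matrix proteoglycan gene of fibroblasts, was found in 98.8% of the ApcMin and 98.8% of the VApcMinL cells, against 41.4% and 52.4% of the kept barcodes with no *Pdgfra* UMI. *Col1a1* was found in 97.9% and 96.5% of the cells and *Lum* in 95.5% and 90.2%. Genes of other cell types were present too: *Ptprc*, which encodes CD45, in 5.93% and 4.24% of the cells, *Epcam* in 2.03% and 11.3%, and the globin gene *Hbb-bs* in 99.4% and 86.6%. At the edge of the rule, 237 ApcMin cells had exactly 1 *Pdgfra* UMI, and 9.70% of them (6.25 to 14.2) held UMIs of at least 2 of the 6 genes, against 0.412% of the 3158 barcodes with none. For VApcMinL the same shares were 0.533% of 375 cells and 0.322% of 2791 barcodes. Just outside the depth limit, 1 of 80 ApcMin cells with 1000 to 3000 UMIs and 0 of 241 VApcMinL cells held at least 2 of the genes, and just inside it, from 3000 to 4000 UMIs, 2 of 69 and 0 of 176 did.

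Because *Barx1*, *Six2* and *Isl1* carried the pattern within single cells described further on, the 200 bases from 250 to 51 before their RefSeq transcription starts (mouse build GRCm38.p6) are shown, each 5′ to 3′ on the strand of its gene. Capitals mark the letters GATAA, a core that GATA factors recognise, on either strand. The *Barx1* window is on the plus strand at chr13:48662786-48662985, the *Six2* window on the minus strand at chr17:85688305-85688504 and the *Isl1* window on the minus strand at chr13:116309739-116309938, and none of them overlaps a gene of the GENCODE annotation.
Barx1: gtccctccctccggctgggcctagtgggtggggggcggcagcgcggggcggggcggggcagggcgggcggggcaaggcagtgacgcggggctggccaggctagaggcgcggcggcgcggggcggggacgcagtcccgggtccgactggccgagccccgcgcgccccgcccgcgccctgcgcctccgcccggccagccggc
Six2: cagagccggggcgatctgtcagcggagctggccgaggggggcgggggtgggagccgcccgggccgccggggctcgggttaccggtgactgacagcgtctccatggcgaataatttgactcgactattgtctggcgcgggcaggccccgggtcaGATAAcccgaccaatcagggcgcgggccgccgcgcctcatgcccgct
Isl1: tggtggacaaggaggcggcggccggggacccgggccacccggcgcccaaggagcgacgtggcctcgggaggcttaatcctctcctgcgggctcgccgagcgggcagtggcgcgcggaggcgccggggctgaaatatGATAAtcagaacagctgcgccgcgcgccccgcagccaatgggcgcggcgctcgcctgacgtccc
The windows were rich in G and C, at 85.0%, 71.0% and 73.5% of bases, against a median of 51.5% over 32851 promoter windows of the same length. GATAA stood once in the *Six2* and once in the *Isl1* window, and in 19.3% of all windows. All 6 genes had an entry, and none of their windows held TAAACA (in 10.3% of all windows), TAATTA (4.19%), TGGGTGGTC (0.192%), TCAGGTT (2.85%) or CACTTAA (1.77%), each searched on both strands. A match is a run of letters and was not tested as a binding site.

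Across the libraries, *Barx1*, *Six2*, *Eya4* and *Isl1* were lower in VApcMinL, and the NK genes were rare in both. *Barx1* (ENSMUSG00000021381, chr13:48662998-48666507, plus strand of GRCm38) had 1789 UMIs in ApcMin and 86 in VApcMinL. That is 36.5 CPM (34.8 to 38.2) against 1.90 (1.52 to 2.35), or 19.2-fold more in ApcMin (15.5 to 24.1). Its VApcMinL over ApcMin ratio ranked 27 from the lowest among the 16497 genes with at least 20 UMIs over both libraries. *Six2* (ENSMUSG00000024134, chr17:85684277-85688274, minus strand), which keeps progenitor cells undifferentiated in the kidney, had 500 and 34 UMIs, 10.2 CPM (9.32 to 11.1) against 0.751 (0.520 to 1.05), a 13.6-fold difference (9.58 to 19.8). Its cofactor family member *Eya4* (ENSMUSG00000010461, chr10:23102963-23350786, minus strand) had 252 and 34 UMIs, 5.14 CPM (4.52 to 5.81) against 0.751, a 6.84-fold difference (4.77 to 10.1). The intervals of the libraries lay apart for each of these genes. The folds of *Barx1* and *Six2* depended on the settings given in the closing section. There the log2 ratio, reported at -4.26 for *Barx1* and -3.76 for *Six2*, ran from -4.96 to -3.58 and from -4.39 to -2.87.

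*Isl1* (ENSMUSG00000042258, chr13:116298281-116309689, minus strand) had 1223 UMIs in ApcMin and 271 in VApcMinL, or 24.9 CPM (23.5 to 26.4) against 5.99 (5.30 to 6.74), a 4.16-fold difference (3.65 to 4.77). It was the member with most UMIs left in VApcMinL. *Nkx2-5* (ENSMUSG00000015579, chr17:26838664-26845009, minus strand), best known as a heart factor, had 46 and 10 UMIs, 0.937 CPM (0.686 to 1.25) against 0.221 (0.106 to 0.406), with a wide interval of 2.11 to 9.43 around a 4.24-fold difference. *Nkx3-2* (ENSMUSG00000049691, chr5:41761483-41764501, minus strand) had 15 and 9 UMIs, and its difference of 1.54-fold (0.630 to 3.98) was not detectable at this depth. All 6 genes passed the limit of 20 UMIs, *Nkx3-2* with the fewest. Of them, 5 were at least 2-fold lower in VApcMinL. Among all 16497 genes, 1.95% were at least 2-fold lower and 10.1% at least 2-fold higher. This contrast chose *Barx1*, *Six2* and *Eya4*, and the others came from a list compared on it. Nothing is therefore read from the count of 5 members.

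**Figure D1:**
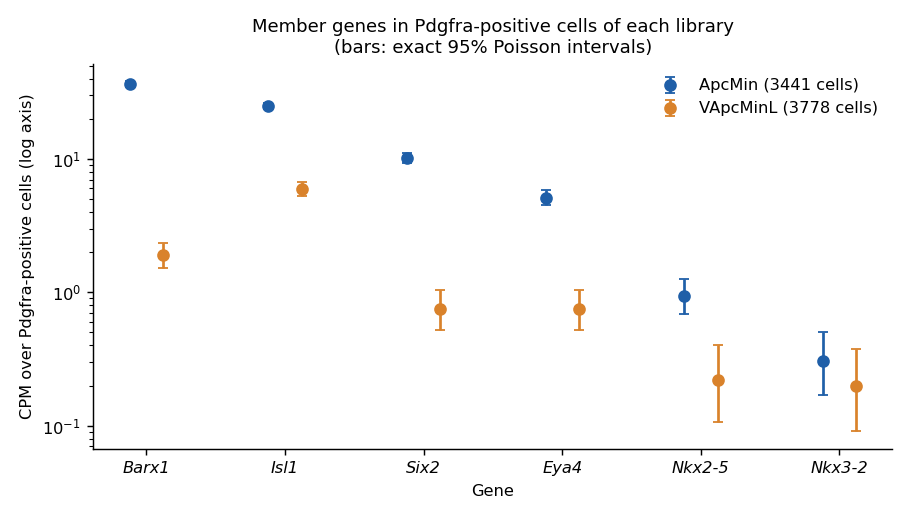
Levels of the 6 genes in the *Pdgfra*-positive cells of each library, in CPM on a log axis with exact 95% Poisson intervals. The ApcMin and VApcMinL intervals lie apart for 5 genes and overlap for *Nkx3-2*.

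The difference lay in how many cells held a UMI more than in how many UMIs such a cell held. *Barx1* was found in 607 ApcMin cells (17.6%) and 36 VApcMinL cells (0.953%), while the mean number of UMIs in those cells was 2.95 and 2.39. *Isl1* was found in 591 cells (17.2%) and 150 cells (3.97%), with means of 2.07 and 1.81 UMIs. These means leave out cells with no UMI, so a lower level in each cell can also appear as fewer cells with a UMI. Fewer expressing cells and a lower level per cell were not told apart. *Six2* was found in 312 (9.07%) and 25 cells (0.662%), *Eya4* in 155 (4.50%) and 26 (0.688%), *Nkx2-5* in 45 and 8, and *Nkx3-2* in 14 and 9. Thinned to 3000 UMIs per cell, so that depth was equal, *Barx1* was found in 8.20% and 0.344% of cells, *Isl1* in 6.89% and 1.69%, *Six2* in 3.34% and 0.185%, and *Eya4* in 1.37% and 0.159%.

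Barcodes of B or plasma cell type, which should lack these genes, give the background of free RNA. They had no *Pdgfra* UMI and at least 5 UMIs of *Cd79a*, *Cd79b*, *Ms4a1* and *Mzb1* together, numbered 1078 and 767, and had a median of 5636.5 and 5034 UMIs. *Barx1* and *Six2* were found in none of them, which at a floor of 3 counts allows a share with a UMI of up to 0.278% and 0.391%. *Eya4* was found in 2 and 1 of them and *Isl1* in 1 and 2. After thinning, the VApcMinL shares of *Barx1*, *Six2* and *Eya4* lay under 0.391%, so these barcodes are too few to set a background below them.

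To place the genes among fibroblast subsets, the cells of both libraries were clustered together with the 6 genes left out, which gave 11 clusters, called here by their leading genes. *Barx1*, *Isl1*, *Six2* and *Eya4* were concentrated in the clusters led by *Pi16* and *Has1* and by *Plau* and *Alkal2*. The Pi16 cluster (1128 ApcMin and 743 VApcMinL cells) is led by genes of adventitial fibroblasts, and the Plau cluster (866 and 703 cells) by a plasminogen activator and a receptor tyrosine kinase ligand. These clusters held 37.6% and 46.9% of the *Barx1* UMIs of ApcMin, 41.2% and 42.2% of *Isl1*, 57.0% and 29.6% of *Six2*, and 51.6% and 42.1% of *Eya4*.

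Among the 5 clusters with over 100 cells in each library that were not led by genes of other cell types, *Barx1* in ApcMin was highest in the Plau cluster, at 79.9 CPM (74.6 to 85.5), then 39.1 CPM (36.2 to 42.2) in the Pi16 cluster and 25.3 CPM (21.4 to 29.7) in the cluster led by *Adamdec1* and *Mmp10* (457 and 1051 cells). The Adamdec1 cluster was followed by those led by *Scg2* and *Thbs2* (162 and 139 cells), at 6.15 CPM (3.36 to 10.3), and by *Grem1* and *Cldn10* (519 and 651 cells), at 2.53 CPM (1.52 to 3.95). Neighbours in this order had separate intervals except the last pair. Among the clusters outside it, the level was 18.8 CPM (13.7 to 25.3) in the one led by hemoglobin genes, and in the one led by *Ednrb* and *Bmp5* it came from 6 UMIs in 1 cell, 47.4 CPM (17.4 to 103). *Isl1* kept the same order over the upper 3 of the 5 clusters, with 49.1 CPM (45.0 to 53.6) in the Plau, 29.3 CPM (26.8 to 32.0) in the Pi16 and 13.3 CPM (10.5 to 16.6) in the Adamdec1 cluster. *Six2* did not: it had 16.6 CPM (14.7 to 18.6) in the Pi16 and 14.1 CPM (11.9 to 16.6) in the Plau cluster, intervals that overlap, and 3.27 CPM (1.97 to 5.11) in the Adamdec1 cluster. *Eya4* had 10.1 CPM (8.26 to 12.2) in the Plau and 7.56 CPM (6.32 to 8.98) in the Pi16 cluster, also overlapping, and only 4 UMIs in the Adamdec1 and 2 in the Grem1 cluster. Cells with a UMI of at least 1 of the 6 genes made up 46.2% of the Plau, 28.6% of the Pi16, 10.9% of the Adamdec1, 5.56% of the Scg2 and 5.01% of the Grem1 cluster of ApcMin, and 11 of the 23 cells (47.8%) of the small cluster led by *Wif1*.

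Clusters led by genes of subepithelial cells differed from each other. The cluster led by *Wif1* and *Itgbl1*, with 23 ApcMin and 133 VApcMinL cells, had *Isl1* at 49.4 CPM (28.3 to 80.3) and 15.1 CPM (10.0 to 21.8), a 3.28-fold difference (1.66 to 6.28). *Barx1* had 12 UMIs there in ApcMin, 37.1 CPM (19.2 to 64.8), and 0 in VApcMinL. *Six2* and *Eya4* had 0 UMIs in this cluster in both libraries, so *Isl1* there came without them at this depth. In the cluster led by *Ednrb* and *Bmp5*, 1 of 10 ApcMin cells and 0 of 73 VApcMinL cells held a UMI of any of the 6 genes. The remaining clusters were led by mast cell and myeloid genes, by hemoglobin genes, by the endothelial genes *Fabp4* and *Flt1* and by the epithelial genes *Reg3b* and *Reg3g*. They held few cells, and the results without them are given with the other settings in the closing section.

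**Figure D2:**
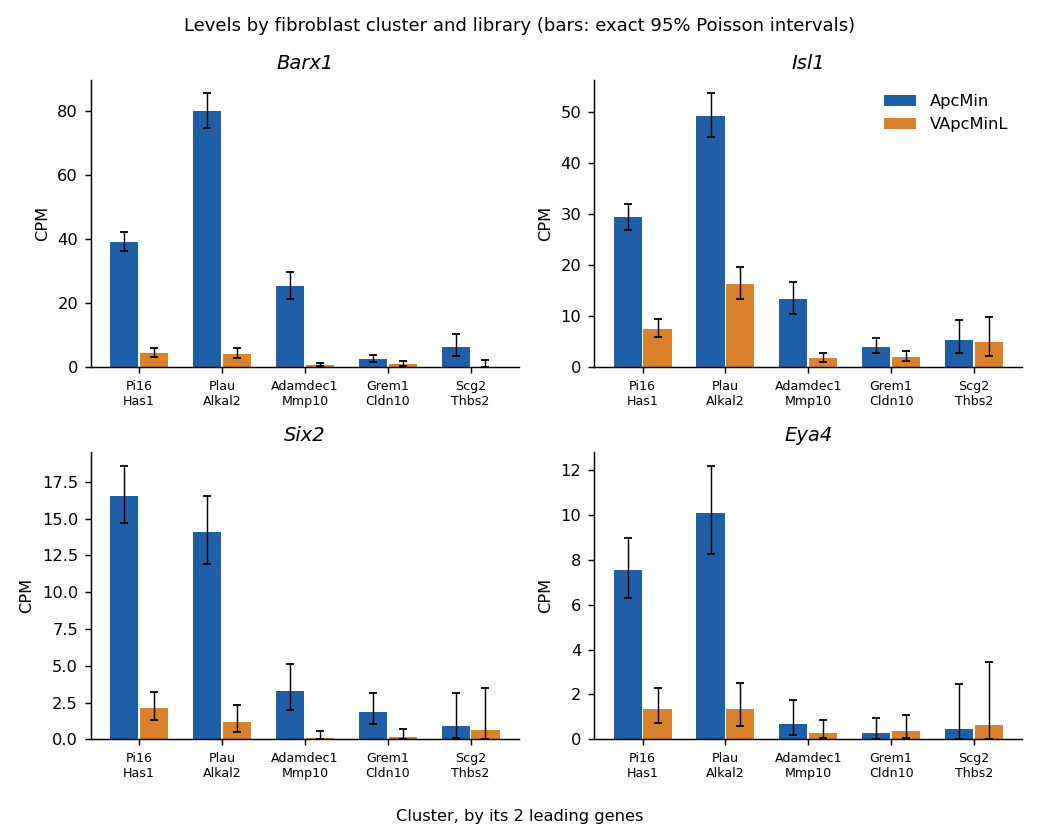
Levels of *Barx1*, *Six2*, *Eya4* and *Isl1* by cluster and library, in CPM with exact 95% Poisson intervals. In ApcMin, *Barx1* reaches 79.9 CPM in the Plau cluster and 2.53 CPM in the Grem1 cluster.

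The levels inside clusters are also given as a description, with intervals that cover counting error only. The ApcMin over VApcMinL fold of *Barx1* was 8.95 (6.62 to 12.4) in the Pi16, 19.3 (13.3 to 29.2) in the Plau, 43.7 (19.6 to 121) in the Adamdec1 and 2.94 (1.18 to 8.26) in the Grem1 cluster. For *Isl1* the folds were 3.92 in the Pi16, 3.02 in the Plau, 7.23 in the Adamdec1 and 2.03 in the Grem1 cluster, and 1.06 (0.399 to 2.99) in the Scg2 cluster, where no difference was detectable. The Grem1 folds were not stable: *Barx1* had 7 VApcMinL UMIs in 2 cells there, and in the finer clustering given next the folds were 2.01 (0.745 to 5.94) for *Barx1* and 1.55 (0.786 to 3.15) for *Isl1*. In a clustering of the merged libraries without integration they were 2.13 (0.897 to 5.42) and 0.793 (0.416 to 1.48). With the ApcMin level of each cluster and the VApcMinL cluster sizes, *Barx1* would be at 30.9 CPM against the measured 1.90, *Six2* at 7.39 against 0.751, *Eya4* at 3.58 against 0.751 and *Isl1* at 21.0 against 5.99.

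A finer clustering (resolution 0.5 in place of 0.2) set *Six2* and *Eya4* apart. It divided most Pi16 cells between clusters led by *Gm12840* and *Inmt* (778 ApcMin and 578 VApcMinL cells) and by *Efhd1* and *Pi16* (218 and 96). A cluster led by *Has1* and *Npy1r* (160 and 99 cells) drew 72.2% of its cells from the Pi16 and 27.0% from the Grem1 cluster. *Six2* was highest in the Has1 cluster, at 78.3 CPM (66.3 to 91.9), against 17.2 (13.3 to 21.7) in the Efhd1 and 14.3 (12.1 to 16.8) in the Plau cluster. *Eya4* was highest in the Efhd1 cluster, at 16.1 CPM (12.4 to 20.6), and had only 5 UMIs, 2.61 CPM (0.848 to 6.09), in the Has1 cluster. The Has1 cluster, led by a hyaluronan synthase, held 30% of the *Six2* UMIs of ApcMin and 1.98% of those of *Eya4*, while the Efhd1 cluster held 25.4% of those of *Eya4*. *Six2* and *Eya4*, whose protein families bind each other, thus peaked in different clusters.

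*Barx1* and *Isl1* were also highest in the Has1 cluster, at 106 CPM (91.9 to 122) and 69.5 CPM (58.2 to 82.3). For *Barx1* the cluster led by *Agt* and *Adamdec1* (105 and 305 cells) came next, at 86.6 CPM (71.3 to 104), an interval that overlaps that of the Has1 cluster and that of the Plau cluster, 80.7 CPM (75.4 to 86.3). *Isl1* in the Agt cluster was at 29.4 CPM (20.8 to 40.3), and *Six2* and *Eya4* had 3 and 1 UMIs there. This split the Adamdec1 cells, since the cluster led by *Cxcl13* and *Ereg* (341 and 722 cells) had *Barx1* at 7.98 CPM (5.56 to 11.1). In VApcMinL the Agt cluster had 4 *Barx1* UMIs, in 1 cell, a 69.2-fold difference with a wide interval of 26.3 to 258. In VApcMinL, too, the Has1 cluster had the highest *Barx1* level of the 8 clusters plotted: it was at 19.8 CPM (12.8 to 29.3) there, 5.35-fold lower than in ApcMin (3.52 to 8.46). *Six2* was at 13.5 CPM (7.85 to 21.6) there, 5.81-fold lower (3.51 to 10.2), and the 99 cells held 50% of the *Six2* UMIs of VApcMinL. *Barx1* in VApcMinL was at 0.145 CPM (0.00367 to 0.808) in the Cxcl13 cluster.

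*Nkx2-5* and *Nkx3-2* were too rare for an order over all clusters. *Nkx2-5* had 23 of its 46 ApcMin UMIs in the Plau cluster, 2.19 CPM (1.39 to 3.29), and 14 in the Pi16 cluster, 0.814 CPM (0.445 to 1.37), intervals that lie just apart. In VApcMinL 4 of its 10 UMIs lay in the Has1 cluster. *Nkx3-2* had 5 of its 15 ApcMin UMIs in the Efhd1 cluster, and no other finer cluster had more than 3.

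**Figure D3:**
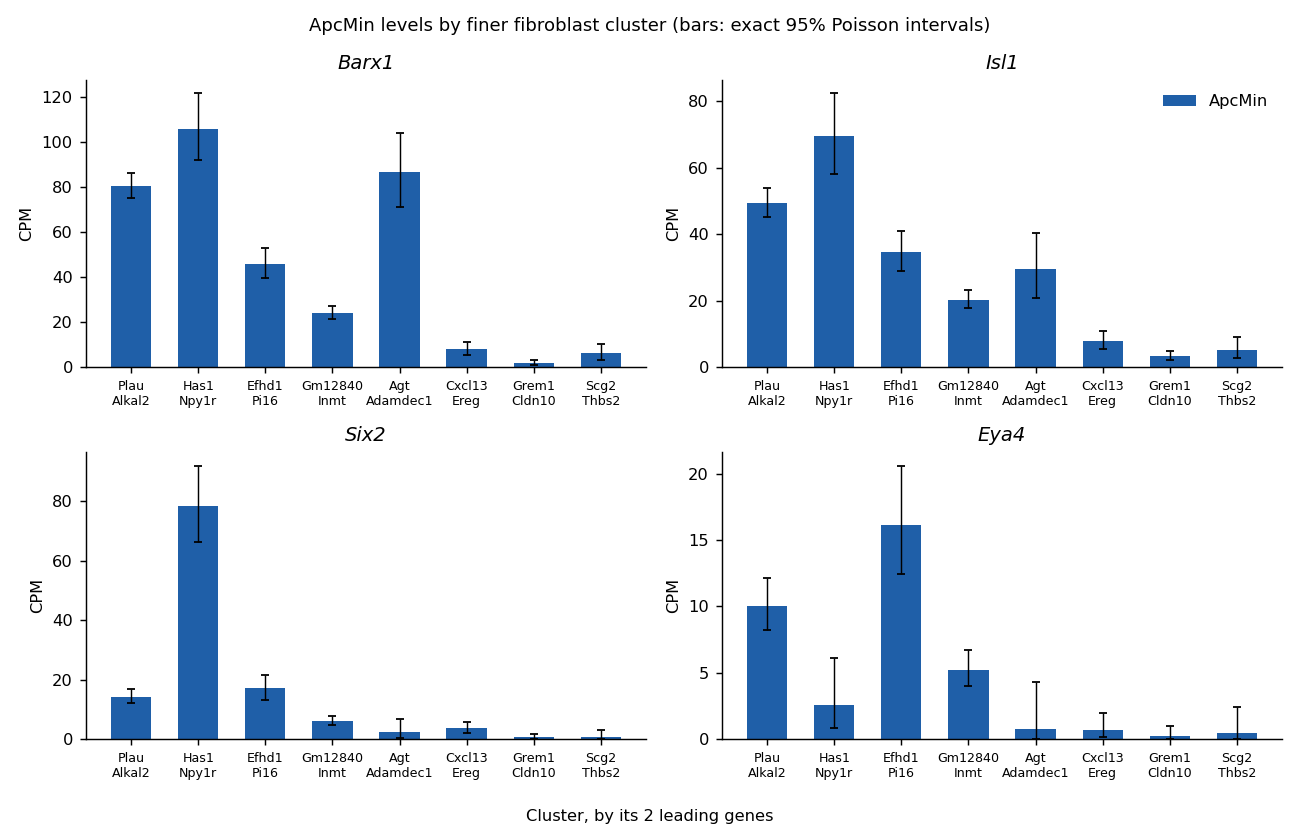
ApcMin levels of *Barx1*, *Six2*, *Eya4* and *Isl1* in 8 clusters at resolution 0.5, in CPM with exact 95% Poisson intervals. *Six2* stands highest in the Has1 cluster at 78.3 CPM and *Eya4* in the Efhd1 cluster at 16.1 CPM.

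Co-detection asks whether the genes occurred in the same cells. In ApcMin, 868 cells (25.2%) held a UMI of at least 1 of the 6 genes and 553 cells, 16.1% (14.9 to 17.3), held at least 2 of them. There were 302 cells with exactly 2, 204 with 3, 42 with 4 and 5 with 5 of the genes, and no cell held all 6. In VApcMinL, 198 cells (5.24%) held at least 1 and 38 cells, 1.01% (0.713 to 1.38), at least 2. No B or plasma type barcode of either library held 2. Thinned to 3000 UMIs, the shares with at least 2 were 4.24% (3.59 to 4.97) in ApcMin and 0.132% (0.0430 to 0.309) in VApcMinL. The ApcMin cells with 2 or more were not deeper than those with none, with a median of 13372 against 13508 UMIs, while in VApcMinL the 38 cells were deeper, with 13740 against 10767.5.

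Pooled over the members, a cell with a member held another more often in ApcMin, where the members were more common. Such a share falls as members become rarer, so nothing about their link is read from the pooled difference. Of the 523 thinned ApcMin cells with a member, 146 or 27.9% (24.1 to 32.0) held another, against 5 of 86 or 5.81% (1.91 to 13.0) in VApcMinL, where 64 of the 86 were *Isl1* cells. *Barx1* and *Isl1* made the most frequent pair: *Isl1* was in 27.7% (22.5 to 33.3) of the 282 thinned *Barx1* cells and in 5.03% (4.30 to 5.85) of the cells without *Barx1*. *Six2* was in 17.7% (13.5 to 22.7) of the *Barx1* cells and in 2.06% (1.59 to 2.62) of the others. Read from the rarer gene, *Barx1* was in 43.5% (34.3 to 53.0) of the 115 *Six2* cells. At full depth 260 of 312 *Six2* cells, 83.3%, held *Barx1*, while 42.8% of *Barx1* cells held *Six2*.

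*Eya4* had fewer cells to compare. *Isl1* was in 15 of the 47 thinned *Eya4* cells, 31.9% (19.1 to 47.1), against 6.54% (5.73 to 7.43) of the cells without *Eya4*. *Six2* was in 5 of them, 10.6% (3.55 to 23.1), against 3.24% (2.67 to 3.89), intervals that overlap at this depth. At full depth they lay apart, with *Six2* in 50 of 155 *Eya4* cells, 32.3% (25% to 40.2%), against 7.97% (7.07 to 8.95) of the others. *Barx1* was in 21.3% (10.7 to 35.7) of the thinned *Eya4* cells, against 8.01% (7.12 to 8.98). Of the NK genes at full depth, 35 of the 45 *Nkx2-5* cells of ApcMin held *Isl1* and 33 held *Barx1*, and of the 14 *Nkx3-2* cells 7 held *Isl1* and 6 *Barx1*. Between the libraries, the pair of *Barx1* and *Isl1* reads differently from each side. *Isl1* was in 4 of the 13 thinned *Barx1* cells of VApcMinL, 30.8% (9.09 to 61.4), beside 27.7% in ApcMin, so no difference was detectable from that side. Read from *Isl1*, thinned *Barx1* was in 6.25% (1.73 to 15.2) of its VApcMinL cells and 32.9% (27.0 to 39.3) of its ApcMin cells, and *Barx1* was itself much rarer in VApcMinL.

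**Figure D4:**
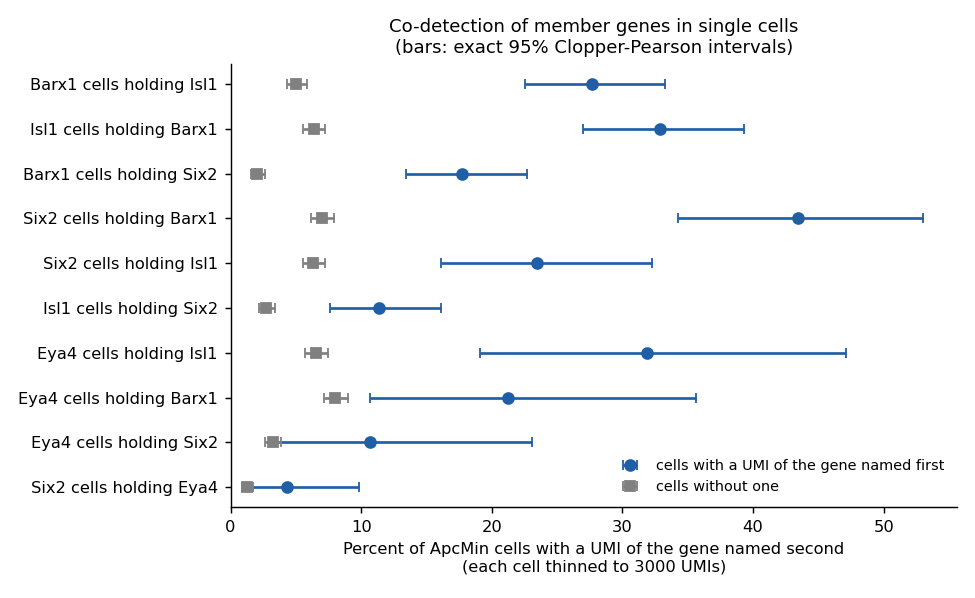
Share of thinned ApcMin cells with a UMI of a gene, among cells with and without a UMI of another, for 10 ordered pairs, in percent with exact 95% Clopper-Pearson intervals. *Isl1* was in 27.7% of *Barx1* cells and 5.03% of the cells without *Barx1*.

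Genes high in the same cluster can meet in its cells, so the pairs were also counted inside clusters. In the Pi16 cluster, *Isl1* was in 27.8% (19.6 to 37.2) of the thinned *Barx1* cells of ApcMin and 5.20% (3.92 to 6.74) of the cells without *Barx1*. In the Plau cluster the shares were 25.8% (18.5 to 34.1) and 11.2% (8.98 to 13.7), and in the Adamdec1 cluster 42.9% (21.8 to 66.0) and 2.52% (1.27 to 4.47). The intervals lay apart in each of the 3 clusters. In the finer Has1 cluster, where each of *Barx1*, *Isl1* and *Six2* were high, they overlapped: *Isl1* was in 19.0% (8.60 to 34.1) of the *Barx1* cells and 14.4% (8.62 to 22.1) of the others, and *Six2* in 33.3% (19.6 to 49.5) and 20.3% (13.5 to 28.7). In the Gm12840 cluster, where the genes were lower, they lay apart, with *Isl1* in 18 of 50 *Barx1* cells (22.9% to 50.8%) and 3.16% (2.01 to 4.70) of the rest. With fewer cells, the intervals overlapped in the Efhd1 cluster, at 22.2% (6.41 to 47.6) and 7% (3.88 to 11.5), and in the Agt cluster, at 33.3% (9.92 to 65.1) and 6.45% (2.40 to 13.5). Leaving out the cells of highest doublet score gave *Isl1* in 26.4% of *Barx1* cells and 5.06% of the others.

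Cells with several of the genes were counted by cluster at full depth. The Pi16 and Plau clusters held 43.6% and 42.9% of the 553 ApcMin cells with at least 2. In the finer clustering such cells were 86 of the 160 ApcMin cells of the Has1 cluster (53.8%, 45.7 to 61.7), 30.3% (24.3 to 36.8) of the Efhd1 cluster and 27.6% (24.7 to 30.7) of the Plau cluster. Depth differed between these clusters, with a median of 18095 UMIs in the Efhd1 and 11977 in the Plau cluster. Thinned, the cells were 24 of 160 in the Has1 cluster (9.85% to 21.5%), 7.48% (5.82 to 9.43) of the Plau and 4.59% (2.22 to 8.27) of the Efhd1 cluster, so the order of the last pair depended on depth and their intervals overlap. Of the 23 cells of the Wif1 cluster 6 were such cells at full depth (26.1%, 10.2 to 48.4) and 0 when thinned (0 to 14.8). At full depth they were 17.1% (10.5 to 25.7) of the Agt, 11.7% (9.52 to 14.2) of the Gm12840 and 1.03% (0.336 to 2.39) of the Grem1 cluster. In VApcMinL the Has1 cluster had 13 of 99 cells (13.1%, 7.18 to 21.4), which was 34.2% of the 38 such cells, and 3 when thinned (3.03%, 0.629 to 8.60). At full depth the Gm12840 cluster followed with 1.73% (0.833 to 3.16).

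**Figure D5:**
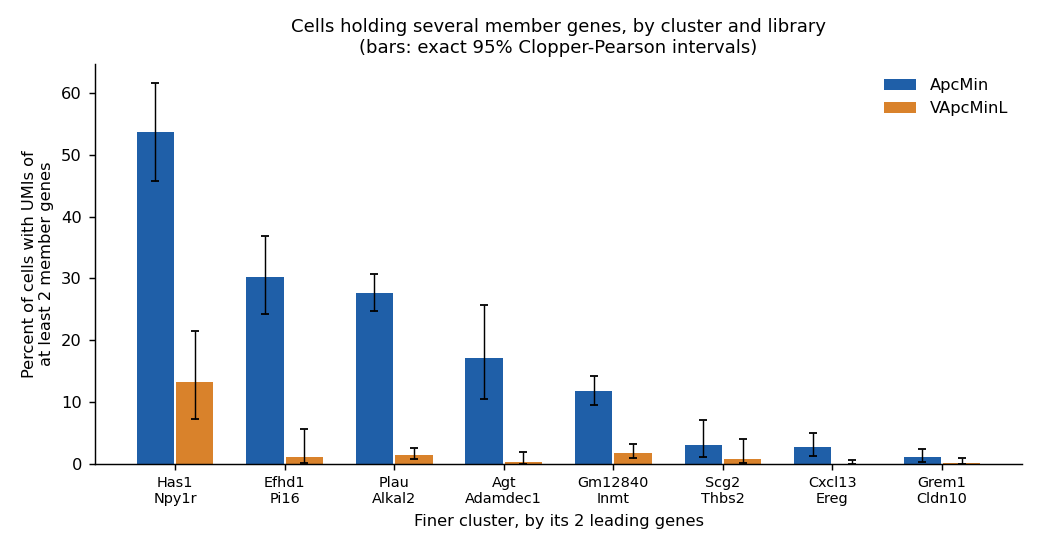
Share of cells with UMIs of at least 2 of the 6 genes at full depth, by cluster at resolution 0.5 and by library, in percent with exact 95% Clopper-Pearson intervals. The Has1 cluster stands highest in both libraries, at 53.8% in ApcMin and 13.1% in VApcMinL.

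What else marked the ApcMin cells with several members was read from the 10 genes with the highest ratio of CPM between those 553 cells and the 2573 with none, among 10616 genes with at least 200 UMIs. *Angptl7*, which encodes an angiopoietin-like protein, was at 40.5 CPM in cells with at least 2 members and 2.86 CPM in cells with none (ratio 14.1, 11.3 to 17.8). *Nrg1*, a ligand of the epidermal growth factor family, was at 62.7 and 5.97 CPM (10.5, 8.95 to 12.4), and *Hp*, which encodes haptoglobin, at 90.6 and 20.0 CPM (4.52, 4.07 to 5.02). The others were *Ankef1*, with the highest ratio at 16.3 (12.1 to 22.3), *Chst1*, a sulfotransferase gene (6.19), *Tox*, an HMG-box gene (6.13), *Sntb1* (5.86), *Crispld1* (5.83), the protease inhibitor gene *Slpi* (4.96) and the matrix gene *Thbs4* (4.57). Of these 10, only *Ankef1*, *Chst1*, *Tox* and *Hp* had a ratio above 1 within both the Pi16 and the Plau cluster. *Angptl7*, for example, had a ratio of 11.5 inside the Pi16 cluster and no UMI in the Plau cells with several members, and *Nrg1* had 0 and 2 UMIs in such cells of these clusters.

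In the 38 VApcMinL cells with at least 2 members, all 10 genes also had a ratio above 1 against the cells with none, and for 7 of them the interval lay above 1. *Angptl7* had a ratio of 33.3 (22.1 to 49.4) there, *Crispld1* 31.5 (21.7 to 45.0) and *Hp* 10.1 (8.06 to 12.6). Of the 38 cells, 24 lay in the Pi16 cluster. Ratios inside clusters were not taken for VApcMinL, so the part of cluster makeup in these ratios was not tested. Between the libraries, 4 of the 10 were at least 2-fold lower in VApcMinL, namely *Ankef1*, *Angptl7*, *Chst1* and *Thbs4*, with log2 ratios of -1.64, -1.61, -1.33 and -1.60. Since the genes mark cells that numbered 553 in ApcMin and 38 in VApcMinL, nothing is read from that count beside the 1.95% of all genes at least 2-fold lower. *Nrg1* differed in the other direction, with a log2 ratio of 1.04.

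The 10 genes lowest in cells with several members were read in the same way. *Reg3b* and *Reg3g*, antimicrobial lectins of the intestinal epithelium, were at 2.71 against 238 CPM and 1.42 against 162 CPM, and *S100g*, *Prap1*, *Phgr1*, *Wfdc18*, *Tc2n*, *Car3*, the immunoglobulin gene *Ighv4-1* and *Bpifb5* made up the rest. *Bpifb5* had 0 UMIs in cells with several members and 1898 in cells with none. In VApcMinL *Reg3b* had a ratio of 0.0681 (0.0432 to 0.102). Within the Pi16 cluster of ApcMin only *Tc2n* and *Car3* had an interval below 1, and within the Plau cluster none did, so inside these clusters most of the differences were not detectable. *Ptprc* was in 5.06% of the cells with several members and 6.30% of those with none, and *Epcam* in 1.27% and 2.14%. In level they differed more, with *Epcam* at 0.902 and 50.6 CPM and *Hbb-bs* at 6397 and 13291 CPM. *Dcn* was in 99.6% and 98.4% of them, and the collagen gene *Col1a1* at 1370.5 and 2822 CPM. The part of epithelial RNA in these ratios was not tested.

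Likeness of pattern was measured as Pearson's r of log2(CPM + 1) over the 18 sums of a cluster in a library with at least 50 cells, among 12212 genes. The 18 points share 2 libraries, and the library difference that chose *Barx1*, *Six2* and *Eya4* is in them, so r is a description. The gene most like *Barx1* was *Six2* (r = 0.94), and the reverse held, followed for *Barx1* by *Gm8797* (0.83), *Nme2* (0.82), *Isl1* (0.80) and *Bcl6* (0.77). *Nme2* (0.83), *Gm8797* (0.81), *Eya4* (0.80) and *Isl1* (0.78) came next for *Six2*. *Eya4* was most like *Ebf2* (0.83), a transcription factor gene of mesenchymal precursors, then *Ccdc170*, *Sult1e1*, *Emilin2* and *Six2*. *Isl1* was most like *Cacna1a* (0.84), a calcium channel gene, then *Zfhx4*, *Igfbp6*, *1500009L16Rik* and *Barx1*. For *Nkx2-5* the genes were *Zfp592* (0.83), *Lsm10*, *Eya4*, *Snrnp27* and *Arf3*, and for *Nkx3-2* *6330403K07Rik* (0.83), *Gnaz*, *Syt1*, *Cbarp* and *Resp18*. With 46 and 10 UMIs of *Nkx2-5* and 15 and 9 of *Nkx3-2* spread over 18 sums, the r values of both rest on sparse counts and are no finding.

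Relatives of the members were counted in the same way, and with 1.95% of all genes at least 2-fold lower and 10.1% higher, counts of 0 lower in lists this short are near the background. In the Six-Eya-Dach network, 6 genes besides *Six2* and *Eya4* had at least 20 UMIs, of which 0 were at least 2-fold lower in VApcMinL and 2 were at least 2-fold higher, with a median log2 ratio of -0.24 against 0.05 over all genes. Those higher were *Eya1*, at 1.06 and 3.42 CPM (ratio 3.23, 2.35 to 4.51), and *Dach1*, at 6.89 and 15.2 CPM (2.21, 1.93 to 2.52). *Dach2* had too few UMIs, 0 and 6. Among NK genes, *Nkx2-3*, a factor of intestinal and splenic mesenchyme, was the only other gene measured, at 124 and 204 CPM, and *Nkx2-6* had 0 UMIs. Of 6 LIM genes and partners besides *Isl1*, 0 were lower and 1 was higher (*Lhx6*, 5 and 16 UMIs), with a median log2 ratio of 0.19, and the cofactor gene *Ldb1* was at 46.8 and 60.0 CPM.

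Among stomach and pylorus mesenchyme genes outside the 6, *Gata3* and *Wt1* were at least 2-fold lower in VApcMinL, and *Sox9* and *Tcf21* were within 2-fold. *Gata3*, which lies downstream of *Isl1* in the embryonic pylorus, was at 3.81 CPM in ApcMin and 1.24 CPM in VApcMinL (ratio 0.325, 0.236 to 0.440). Over all kept barcodes *Gata3* was at 3.72 and 2.09 CPM. In empty droplets, barcodes with 10 to 100 UMIs, it was higher than in the cells, at 17.4 and 9.71 CPM. The part of free RNA in the *Gata3* difference was not tested. *Wt1*, a factor of mesothelium and its descendants, was at 38.0 and 17.4 CPM. *Sox9* was at 44.1 and 53.2 CPM and *Tcf21* at 229 and 295 CPM. Of the Wnt antagonists that act below *Barx1* in the embryo, *Sfrp1* was at 1545 and 2019 CPM, a log2 ratio of 0.39, and *Sfrp2* had 587 and 311 UMIs, a log2 ratio of -0.80, neither past 2-fold.

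Of 13 general factors of visceral mesenchyme, 0 were at least 2-fold lower in VApcMinL and 2 were higher, near the shares over all genes. The latter were the Hedgehog targets *Hhip*, at 26.2 and 69.3 CPM, and *Ptch1*, at 92.1 and 192 CPM, and the median log2 ratio was 0.09. *Foxf1* was at 61.6 and 95.3 CPM. The *Hox* genes, which mark position along the body, were measured as groups. For groups 4 to 6, 0 of 9 were lower and 1 was higher (*Hoxa6*, 1.08 and 2.67 CPM), with a median log2 ratio of 0.18. For groups 8 to 10, 2 of 6 were lower and 0 higher, with a median of -0.38: *Hoxa9*, with 47 UMIs in 1 ApcMin cell and 1 UMI in VApcMinL, and *Hoxb9*, with 17 and 7 UMIs.

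Markers of other tissues moved between the libraries beside the members. Genes of stomach epithelium, the neighbour of *Barx1* mesenchyme, were not higher in ApcMin: 8 of 13 had at least 20 UMIs, of which 1 was lower and 7 were higher in VApcMinL. Their summed level in the *Pdgfra*-positive cells was 9.48 CPM in ApcMin and 42.8 CPM in VApcMinL, led by *Ctse* and *Tff2*, with *Pgc*, *Atp4b* and *Gif* at 0 UMIs in ApcMin, while over empty droplets it was 80.5 and 40.5 CPM. Genes of small intestinal epithelium summed to 116 and 2264 CPM, led by *Apoa1*, and 8 of 8 were higher in VApcMinL. Pancreas genes summed to 89.3 and 927 CPM, led by *Ctrb1*, with 6 of 6 higher, and in empty droplets to 3006 and 385 CPM. The duodenal factor *Pdx1* was at 0 and 0.353 CPM, and the pair of ileum genes at 1.75 and 0.552 CPM, led by *Fabp6* in ApcMin, with 1 of 2 lower. The part of tissue composition in the library difference was not tested.

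Sums are given for several lists of other cell types. Fibroblast genes summed to 32522 and 29047 CPM, with 0 of 6 past 2-fold. Globin genes were lower in VApcMinL, at 16002 against 3435 CPM, with 2 of 2 past 2-fold, led by *Hbb-bs*. Epithelial genes were at 87.9 and 356 CPM with 4 of 4 higher, led by *Epcam* and *Krt8*, fat genes at 0.672 and 25.3 CPM with 3 of 3 higher, led by *Cfd*, and mesothelial genes at 19.5 and 80.0 CPM with 1 of 3 higher. That one was *Krt19*, a keratin gene of epithelium as well, which carried the sum at 17.9 and 77.6 CPM, while *Msln* and *Upk3b* were within 2-fold. The epithelial and fat lists were higher in VApcMinL, where the members were lower. Endothelial genes were at 27.8 and 56.0 CPM (2 of 4 higher, *Cdh5* and *Kdr*), smooth muscle genes at 113 and 189 CPM (2 of 6 higher, *Myh11* and *Actg2*) and genes of interstitial cells of Cajal at 45.7 and 60.3 CPM (2 of 3 higher, *Kit* and *Ano1*). Leukocyte genes, led by *Jchain*, were at 799.9 and 1125 CPM, and pericyte genes, led by *Rgs5*, at 358 and 406 CPM, with none past 2-fold. Their part in the members' levels was not tested, apart from the filters and clusters left out in the closing section.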

How the data were processed

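The deposited values are raw UMI counts per gene and barcode that the authors made with Cell Ranger on mouse build mm10 (GRCm38), with no filter or cell calling. The submitters' notes name version 2.1.1 and the file headers 3.1.0. The members and the gene lists were chosen with earlier results of these data known. Barcodes were kept as described at the opening. Clustering used Seurat 5.3.0 in R 4.3.3 with canonical correlation anchors (30 dimensions, 2000 features asked for), 20 principal components, 20 neighbours and Louvain resolution 0.2, without the 6 genes. Cluster names are leading genes by fold over the other clusters. Sums, intervals and thinning used Python 3.11.15, numpy 2.4.6, scipy 1.17.1 and pandas 2.3.3, doublet scores scanpy 1.11.5 (Scrublet) and plots matplotlib 3.10.9. Genes named are the 6 members, all fixed list genes past 2-fold with examples, the 10 highest and 10 lowest in cells with several members, the 5 most alike per member, and leading genes. No p-value was computed, since cells of 1 library are not replicates. The calculations were tested on simulated data.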

Additional observations from a re-analysis of the deposited data

Results flagged for a closer look

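Members were also seen outside the cells described, above the limit of 3 counts. Among kept barcodes with no *Pdgfra* UMI, *Barx1* had a UMI in 17 ApcMin and 6 VApcMinL barcodes, *Six2* in 6 and 4, *Eya4* in 27 and 17, and *Isl1* in 16 and 28. In *Pdgfra*-positive barcodes of 1000 to 3000 UMIs, below the depth limit, *Isl1* had a UMI in 5 of 80 in ApcMin and 6 of 241 in VApcMinL. The genes named next were chosen after these values were seen. Of the 17 ApcMin barcodes with *Barx1*, 16 held *Dcn*, and *Pi16* led their genes. *Eya4* differed in ApcMin, since 20 of its 27 barcodes there held *Ptprc* and 17 held *Dcn*, with *Tlr12* and *Gbp2b* leading. Of its 17 VApcMinL barcodes, 14 held *Dcn* and 6 held *Ptprc*, with *Fgf1* and *Igfbp6* leading. Of the 28 VApcMinL barcodes with *Isl1*, 23 held *Dcn*, with *Igfbp6* and *Efemp1* leading, and *Upk3b* and *Wt1* among the leading genes. Whether these barcodes are fibroblasts with no *Pdgfra* captured was not tested.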

How the results depend on the processing

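No paired analysis could be made, since there is 1 library per genotype. Over 18 results and 96 alternatives, 78 values stayed within their counting interval or within 1.5 times for counts, 18 moved and 0 reversed. A reversal could be counted only for the log2 ratios of the members other than *Nkx3-2*. Leaving out cells with genes of other cell types, *Hbb-bs* included, left 184 ApcMin and 1909 VApcMinL cells. It moved the log2 ratio of *Barx1* from -4.26 to -3.58 and of *Six2* from -3.76 to -2.87, and the share of ApcMin cells with at least 2 members to 13.6%, and gave no value for *Nkx3-2*. The same filter without *Hbb-bs*, and leaving out the clusters led by genes of other cell types, both chosen after seeing the data, moved neither the share nor a ratio. Thinning gave -4.96 for *Barx1*, -4.39 for *Six2*, -3.30 for *Nkx2-5* and a share of 4.24%. At resolution 0.5 the highest ApcMin level became 106 CPM for *Barx1*, 78.3 for *Six2*, 16.1 for *Eya4* and 69.5 for *Isl1*, since smaller clusters were formed. Without thinning, co-detection rose to 63.7% in ApcMin and 19.2% in VApcMinL for any other member, and in ApcMin to 65.1% for *Isl1* in *Barx1* cells, 83.3% for *Barx1* in *Six2* cells and 66.8% for *Barx1* in *Isl1* cells. Among genes with at least 200 UMIs, 0.772% were at least 2-fold lower and 5.09% higher. Over the alternatives the log2 ratio ran from -3.08 to -2.43 for *Eya4*, -2.24 to -1.98 for *Isl1*, -3.30 to -1.58 for *Nkx2-5* and -0.79 to -0.39 for *Nkx3-2*. The cause of these shifts was not tested where no setting itself shows it. Scaling by the median ratio of genes shifted log2 ratios by 0.05. Free RNA, estimated from immunoglobulin genes, was 1.23% and 5.54% of the cells' UMIs, and with few UMIs of *Nkx2-5* and *Nkx3-2* depth limits both.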
